A study of Mus musculus with 24 samples.

Results

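UDP-glucuronosyltransferases join a sugar acid to bile acids, steroids, bilirubin and drugs so that these leave the body in bile or urine. Described here are 10 mouse genes of this system: Ugdh, which encodes the enzyme that makes the sugar donor, 7 genes of the Ugt2 family and the Ugt3 family genes Ugt3a1 and Ugt3a2. They were taken by symbol, with the probe set of highest mean where a symbol has several, and 9 of the 10 had a probe set of their own among the 18820 named genes of the arrays. Ugt3a2 had none and is covered only by 3 probe sets that also carry the symbol Ugt3a1.

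The enzymes sit in the membrane of the endoplasmic reticulum. Ugt2 enzymes use UDP-glucuronate, which Ugdh makes by oxidising UDP-glucose, whereas Ugt3 enzymes are known to use other UDP-sugars. FXR, the bile acid receptor encoded by Nr1h4, binds DNA mostly as a dimer with RXR at inverted repeats of the motif AGGTCA, and in liver it lowers bile acid synthesis and raises bile acid export.

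Livers of 24 male C57BL/6 mice, fed chow and 9 to 12 weeks old, were profiled on whole-transcript arrays with 1 mouse per array. The 4 groups of 6 were wild-type (WT) mice given vehicle, WT mice given obeticholic acid (OCA, also INT-747), FXR-/- mice (FXRKO) given vehicle and FXRKO mice given OCA. OCA, a semi-synthetic FXR agonist, was gavaged daily at 10 mg/kg for 7 days, and the vehicle, 1% methyl cellulose, went to the other animals on the same schedule. The labels name no tissue to which the deletion was limited, so the knockout cannot separate FXR in liver from FXR elsewhere. Values are log2 expression values, and the number of arrays limits their precision.

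The array names carry a number, 5, 7 or 9, for which neither labels nor files state a meaning. All 6 WT OCA arrays bear 5 and all 6 FXRKO OCA arrays bear 9. WT vehicle holds 4 arrays of 7 and 2 of 5, and FXRKO vehicle holds 4 of 7 and 2 of 9. WT vehicle replicate 6 stood apart, where 532 genes differed more than 2-fold from the average of its 5 group mates, against 2 to 90 genes on any of the other 23 arrays. Nr1h4 read 9.85 to 10.30 in WT and 9.80 to 10.13 in FXRKO livers, and the difference was not called under vehicle (−0.17, limma adjusted p = 0.0935); which part of the transcript its probes cover is not stated, so it does not check the genotype labels. Nr0b2, a gene that FXR switches on, had group means of 6.59 and 8.00 in WT and 3.97 and 4.17 in FXRKO livers, for vehicle and OCA in turn. The liver label was checked on 6 hepatocyte markers (Alb, Ttr, Apoa1, Apob, Fgb and Cps1). Their signals were summed on the linear scale, and the log2 of the sum lay between 15.39 and 15.65 on all 24 arrays.

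Of the 10 genes, the 7 Ugt2 genes form a single cluster on chromosome 5, in the order Ugt2b34, Ugt2b1, Ugt2b35, Ugt2b36, Ugt2b37, Ugt2a3 and Ugt2b38, with Ugt2b5, which is not among the 10, between Ugt2b36 and Ugt2b37. Ugt2b35 alone is read from the + strand. Ugdh lies elsewhere on chromosome 5, and Ugt3a1 and Ugt3a2 are neighbours on chromosome 15. RefSeq (GRCm38.p6) gave a promoter of 300 bases, 250 before and 50 after the annotated start, for each of the 9 genes that had a probe set. AGGTCA, on either strand, occurred in 4 of these 9 and in 16.3% of 32851 promoters. GTTAAT, the core of the site of the liver factor HNF1, searched on both strands, occurred in 2 of the 9 and in 7.1% of all. The inverted repeat of AGGTCA around a single spacer base (IR1), a form of the FXR site that contains AGGTCA, occurred in 0 of the 9 and in 3 promoters of all 32851 (0.00913%). A match describes these letters only, and no match says only that they are not in this window.

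Printed here are 3 promoters of the cluster that share a stretch, with the AGGTCA match in capitals. All 3 lie on the − strand of GRCm38.p6, at chr5:87092506-87092805 for Ugt2b36, chr5:87254739-87255038 for Ugt2b37 and chr5:87424154-87424453 for Ugt2b38, and each reads 5′ to 3′ along its gene.
Ugt2b36: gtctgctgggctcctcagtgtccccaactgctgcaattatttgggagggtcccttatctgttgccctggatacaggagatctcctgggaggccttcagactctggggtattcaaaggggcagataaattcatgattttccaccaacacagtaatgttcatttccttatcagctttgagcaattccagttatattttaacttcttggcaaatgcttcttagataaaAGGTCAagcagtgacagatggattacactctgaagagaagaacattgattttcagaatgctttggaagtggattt
Ugt2b37: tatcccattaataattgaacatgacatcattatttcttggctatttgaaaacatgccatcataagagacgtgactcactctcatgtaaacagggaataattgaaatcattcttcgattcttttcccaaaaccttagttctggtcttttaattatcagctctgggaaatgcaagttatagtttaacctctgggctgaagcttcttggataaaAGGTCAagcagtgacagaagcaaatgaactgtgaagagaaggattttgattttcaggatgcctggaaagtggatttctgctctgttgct
Ugt2b38: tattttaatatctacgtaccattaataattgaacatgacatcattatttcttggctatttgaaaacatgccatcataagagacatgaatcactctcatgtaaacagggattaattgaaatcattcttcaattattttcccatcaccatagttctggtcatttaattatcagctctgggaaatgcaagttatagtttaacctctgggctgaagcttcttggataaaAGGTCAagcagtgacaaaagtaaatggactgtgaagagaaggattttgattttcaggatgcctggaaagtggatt
The match began 25 bases before the start in Ugt2b36 and Ugt2b38 and 39 bases before it in Ugt2b37. All 3 held it inside the same run of 22 bases:
shared run: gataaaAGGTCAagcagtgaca
Exactly 4 of the 32851 promoters held this run (0.0122%), the last being that of Ugt2b5; the run was chosen after the sequences were seen. Ugt2b37 and Ugt2b38 were 87.3% identical over their aligned promoters, and Ugt2b36 and Ugt2b38 were 63.5% identical. The expression of the 3 genes is given further on. Ugt2b36 and Ugt2b38 were lower in FXRKO liver, and Ugt2b37 was not called.

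Shown for contrast are the promoters of Ugt2b35, on the + strand at chr5:87000610-87000909, and of Ugt2a3, on the − strand at chr5:87337146-87337445, with AGGTCA in capitals in the first and GTTAAT in the second.
Ugt2b35: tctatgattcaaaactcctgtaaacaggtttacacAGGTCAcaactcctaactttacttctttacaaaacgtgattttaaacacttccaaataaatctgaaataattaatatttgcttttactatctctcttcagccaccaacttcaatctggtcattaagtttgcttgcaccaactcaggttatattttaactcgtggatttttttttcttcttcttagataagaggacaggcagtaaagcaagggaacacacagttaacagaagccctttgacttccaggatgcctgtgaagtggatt
Ugt2a3: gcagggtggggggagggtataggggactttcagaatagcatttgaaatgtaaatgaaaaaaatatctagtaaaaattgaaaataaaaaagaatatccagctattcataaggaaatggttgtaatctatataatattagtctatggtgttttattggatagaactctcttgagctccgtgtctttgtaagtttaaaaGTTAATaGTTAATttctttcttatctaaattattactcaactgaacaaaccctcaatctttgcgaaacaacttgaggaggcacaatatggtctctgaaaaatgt
In Ugt2b35, which was higher in FXRKO liver, AGGTCA stood 215 bases before the start and outside the shared run. In Ugt2a3, which was lower, GTTAAT stood 54 and again 47 bases before the start. Ugt3a1 held GTTAAT 123 bases before its start, and the promoters of Ugt2b34, Ugt2b1 and Ugdh held neither motif.

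Genotype divided the genes. In vehicle-treated livers, 3 of the 9 measured genes were higher in FXRKO than in WT mice (Ugdh, Ugt2b34 and Ugt2b35), 5 were lower (Ugt2b1, Ugt2a3, Ugt2b38, Ugt3a1 and Ugt2b36) and Ugt2b37 was not called. The test was limma over all 18820 named genes with Benjamini-Hochberg adjustment, called at adjusted p < 0.05. In that comparison 27.5% of all named genes were called, 15.4% higher and 12.1% lower. The median difference was −0.18 over the 9 genes and −0.029 over all named genes. Among OCA-treated livers the counts were again 3 higher and 5 lower, with the same genes on each side. The group means of the 2 comparisons share no array. Their spread was estimated from all 24 arrays together, so the calls are not independent. There 30.7% of all named genes were called, 17.4% higher and 13.3% lower, and the medians were −0.29 and −0.023. The genes were chosen with earlier results of these data known, so these counts describe them. Without WT vehicle replicate 6 the vehicle counts were again 3 and 5, and over all named genes 2974 and 2477. With the array number as a block the OCA counts were 2 and 2, and over all named genes 1401 and 933.

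**Figure D1:**
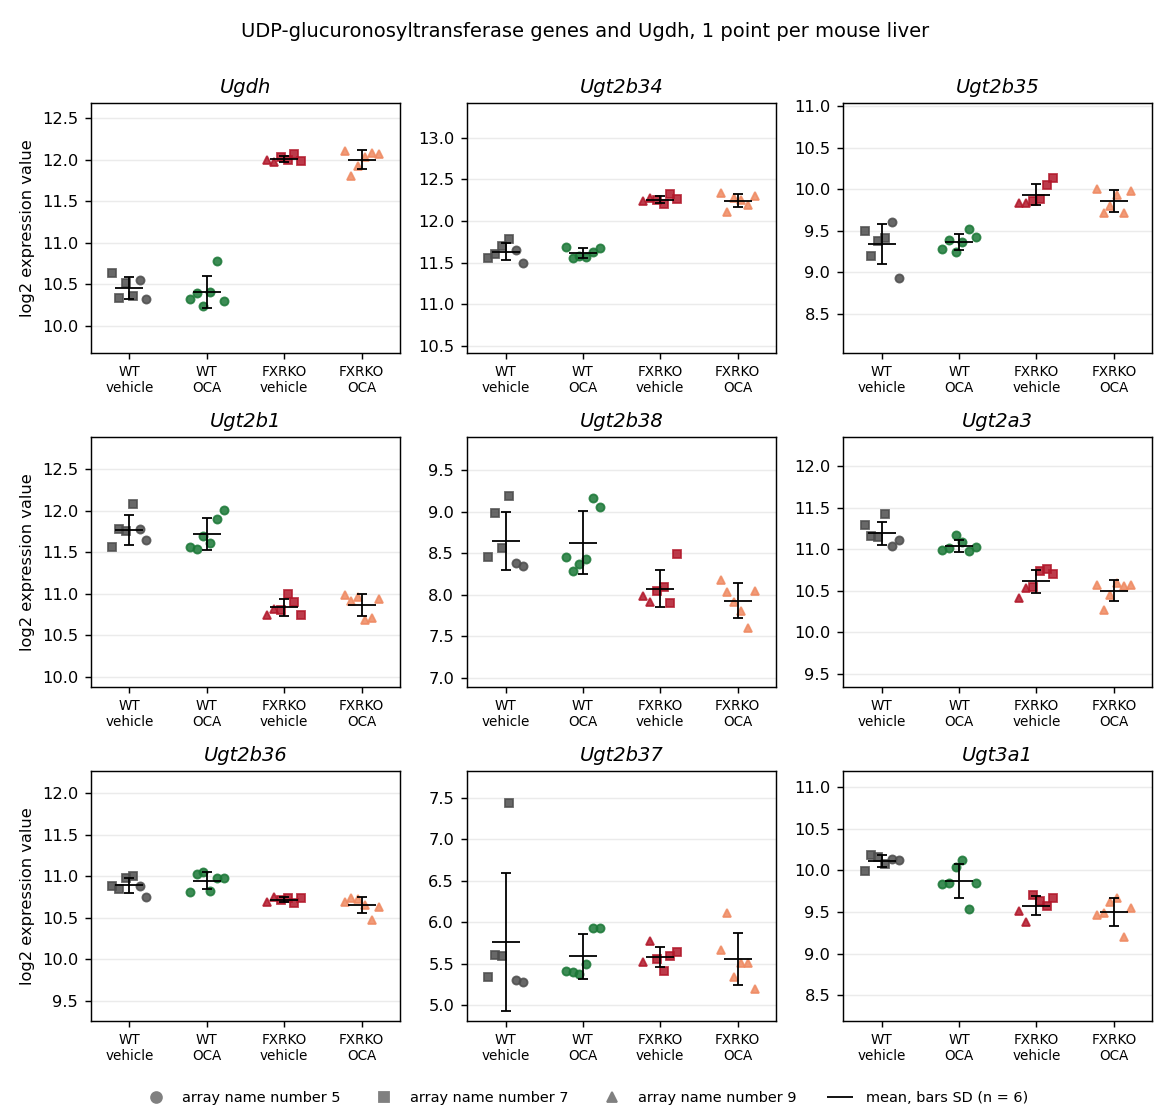
Log2 expression value of the 9 measured genes in every liver, by group, with 1 point per mouse, the mean as a line and SD bars (n = 6); marker shape gives the number in the array name, and each panel spans the same height of the log2 scale. Ugdh, Ugt2b34 and Ugt2b35 sit higher in both FXRKO groups, Ugt2b1, Ugt2a3, Ugt2b38, Ugt3a1 and Ugt2b36 sit lower, and Ugt2b37 shows 1 WT vehicle array at 7.44.

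Ugdh, the donor-making dehydrogenase, changed most. Its log2 values ran from 10.32 through a median of 10.44 to 10.64 in WT vehicle livers and from 11.98 through 11.99 to 12.07 in FXRKO vehicle livers. In the OCA groups they ran from 10.24 through 10.36 to 10.79 in WT and from 11.80 through 12.05 to 12.11 in FXRKO mice. Every FXRKO array thus lay above every WT array, with the nearest pair at 10.79 and 11.80. Groups that did not overlap made up 9.4% of all named genes for higher values and 5.67% for lower values under vehicle, and 10.9% and 7.48% under OCA. Under vehicle the difference was 1.55 ± 0.08 (SE, n = 6 per group), or 2.94-fold (limma adjusted p = 7.6e-14). Under OCA it was 1.59 ± 0.08, or 3.02-fold (limma adjusted p = 3.92e-14).

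Ugt2b34 and Ugt2b35, both of the Ugt2b subfamily, were the other genes that were higher. Ugt2b34 ran from 11.49 through 11.63 to 11.78 in WT vehicle and from 12.20 through 12.26 to 12.32 in FXRKO vehicle livers, and from 11.56 through 11.60 to 11.68 and from 12.11 through 12.26 to 12.34 under OCA. The genotypes did not overlap under either treatment. Its difference was 0.63 ± 0.05 under vehicle (1.54-fold, limma adjusted p = 1.32e-09) and 0.63 ± 0.05 under OCA (1.55-fold, limma adjusted p = 1.16e-09).

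Ugt2b35, the gene of the cluster on the + strand, ran from 8.93 through 9.40 to 9.61 in WT vehicle and from 9.84 through 9.87 to 10.14 in FXRKO vehicle livers. Under OCA it ran from 9.25 through 9.38 to 9.52 in WT and from 9.71 through 9.87 to 10.01 in FXRKO livers. Again no WT array reached an FXRKO array, and the lowest value was that of WT vehicle replicate 6. The difference was 0.60 ± 0.09 under vehicle (1.51-fold, limma adjusted p = 1.43e-05) and 0.48 ± 0.09 under OCA (1.40-fold, limma adjusted p = 0.00017).

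Ugt2b1 was the gene that fell most. It ran from 11.56 through 11.77 to 12.08 in WT vehicle and from 10.74 through 10.81 to 11.00 in FXRKO vehicle livers, and the groups did not overlap. Under OCA it ran from 11.53 through 11.65 to 12.00 in WT and from 10.68 through 10.93 to 10.99 in FXRKO livers, again apart. It fell by 0.93 ± 0.09 under vehicle (1.91-fold, limma adjusted p = 8.92e-09) and by 0.85 ± 0.09 under OCA (1.81-fold, limma adjusted p = 3.56e-08).

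Ugt2a3, whose product belongs to the Ugt2a branch, was lower with no overlap in either comparison. It ran from 11.04 through 11.15 to 11.42 in WT vehicle and from 10.41 through 10.62 to 10.77 in FXRKO vehicle livers. Under OCA it ran from 10.98 through 11.02 to 11.17 in WT and from 10.28 through 10.57 to 10.59 in FXRKO livers. It fell by 0.58 ± 0.07 under vehicle (1.49-fold, limma adjusted p = 9.63e-07) and by 0.54 ± 0.07 under OCA (1.45-fold, limma adjusted p = 2.34e-06).

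Ugt2b38 varied more between mice. It ran from 8.35 through 8.50 to 9.18 in WT vehicle and from 7.90 through 8.01 to 8.49 in FXRKO vehicle livers, where the groups overlapped through FXRKO vehicle replicate 6, the highest of its group. Under OCA it ran from 8.28 through 8.44 to 9.17 in WT and from 7.60 through 7.97 to 8.18 in FXRKO livers, with no overlap. It fell by 0.58 ± 0.16 under vehicle (1.49-fold, limma adjusted p = 0.00762) and by 0.70 ± 0.16 under OCA (1.62-fold, limma adjusted p = 0.00138).

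Ugt2b36 moved least among the called genes. It ran from 10.75 through 10.89 to 11.00 in WT vehicle and from 10.68 through 10.73 to 10.75 in FXRKO vehicle livers, where the groups touched at the second decimal without overlapping. Under OCA it ran from 10.82 through 10.98 to 11.05 in WT and from 10.48 through 10.67 to 10.74 in FXRKO livers. It fell by 0.17 ± 0.06 under vehicle (1.13-fold, limma adjusted p = 0.026) and by 0.29 ± 0.06 under OCA (1.23-fold, limma adjusted p = 0.000263). The vehicle call ended with quantile normalization (−0.14, limma adjusted p = 0.0677) and without WT vehicle replicate 3, WT vehicle replicate 4 or FXRKO vehicle replicate 5 (limma adjusted p = 0.0607, 0.0663 and 0.052). Centring each array on its median moved the value to −0.34 under vehicle and −0.48 under OCA.

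Ugt2b37, the sequence neighbour of Ugt2b38 by promoter, gave no call. It ran from 5.29 through 5.47 to 7.44 in WT vehicle, from 5.41 through 5.57 to 5.78 in FXRKO vehicle, from 5.38 through 5.45 to 5.93 in WT OCA and from 5.20 through 5.51 to 6.11 in FXRKO OCA livers, and all groups overlapped. The highest value belonged to WT vehicle replicate 4 alone. The FXRKO minus WT difference was −0.18 under vehicle (95% interval −0.69 to 0.33, limma adjusted p = 0.646) and −0.035 under OCA (−0.55 to 0.47, limma adjusted p = 0.939). Without WT vehicle replicate 4 the vehicle difference was 0.16. Its intervals are the widest of the 9 genes, and no detection calls were used, so whether its signal exceeds background is not known here.

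Ugt3a1 encodes an enzyme that uses UDP-N-acetylglucosamine as donor. It ran from 9.99 through 10.13 to 10.19 in WT vehicle and from 9.38 through 9.60 to 9.70 in FXRKO vehicle livers, with no overlap. Under OCA it ran from 9.53 through 9.85 to 10.12 in WT and from 9.20 through 9.52 to 9.66 in FXRKO livers, where 1 WT array, replicate 5, fell within the FXRKO range. It fell by 0.53 ± 0.09 under vehicle (1.45-fold, limma adjusted p = 2.75e-05) and by 0.37 ± 0.09 under OCA (1.30-fold, limma adjusted p = 0.00135). The 3 probe sets that carry the symbols of both Ugt3a1 and Ugt3a2 had group means between 11.37 and 11.77, and none of their 15 tests over 35556 probe sets was called; under vehicle their differences were −0.12, 0.044 and −0.12 (limma adjusted p = 0.213, 0.637 and 0.23). The fall of Ugt3a1 thus rests on the 1 probe set that carries its symbol alone, and the 3 that carry both symbols gave no call. Ugt3a2, without a probe set of its own, has no value here. Close copies in the Ugt2b group may likewise share signal between probe sets.

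**Figure D2:**
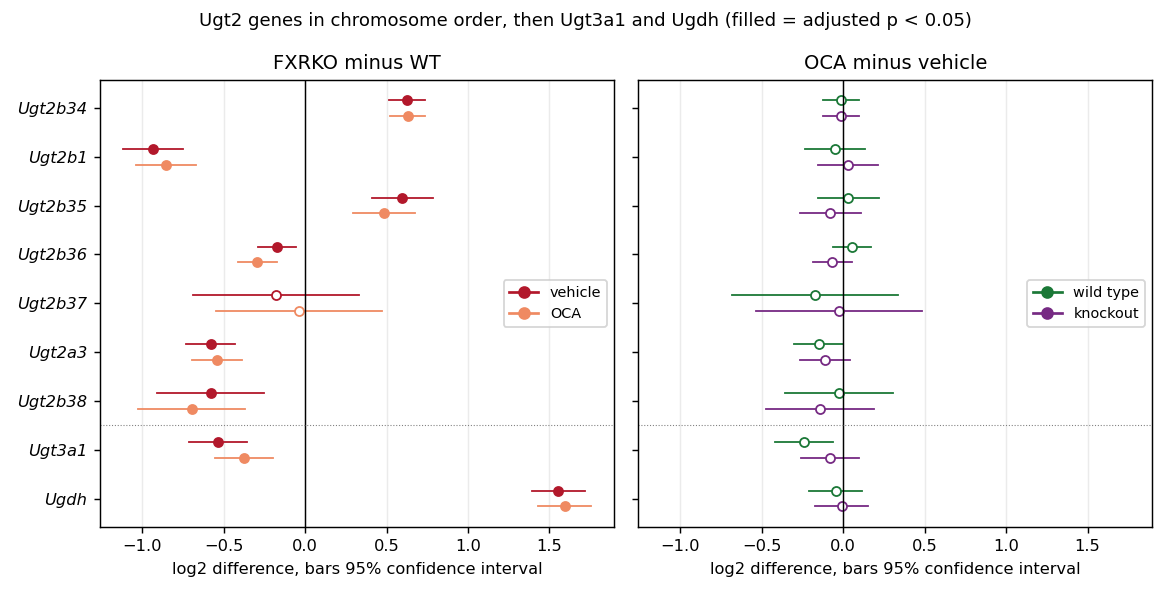
Log2 difference with its 95% confidence interval for FXRKO minus WT (left, by treatment) and OCA minus vehicle (right, by genotype), for the Ugt2 genes in chromosome order, then Ugt3a1 and Ugdh; filled points have limma adjusted p < 0.05. The first neighbours differ in direction, with Ugt2b34 at 0.63, Ugt2b1 at −0.93, Ugt2b35 at 0.60 and Ugt2b36 at −0.17 under vehicle. The Ugt2b36 call depended on the setting. No point of the right panel is filled.

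Along the cluster the direction alternated at its first 4 genes. Under vehicle Ugt2b34 was higher, Ugt2b1 lower, Ugt2b35 higher and Ugt2b36 lower, and beyond these no gene of the cluster was higher. The vehicle call of Ugt2b36 ended under some settings, while its direction held under all. The alternation was not tested. Ugt2b5, the uncounted gene between Ugt2b36 and Ugt2b37, differed by −0.17 under vehicle (limma adjusted p = 0.177) and by −0.26 under OCA (limma adjusted p = 0.0257). Centring brought a vehicle call for it (−0.33, limma adjusted p = 0.0036), and the array number as a block ended the OCA call (−0.37, limma adjusted p = 0.269).

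The vehicle differences stood within the 8 arrays of number 7, 4 per genotype. There Ugdh differed by 1.56, Ugt2b34 by 0.60 and Ugt2b35 by 0.61, and Ugt2b1 by −0.93, Ugt2b38 by −0.66, Ugt2a3 by −0.57, Ugt3a1 by −0.46 and Ugt2b36 by −0.21, and all 8 were called (limma, highest adjusted p = 0.0412, Ugt2b36). Within these arrays 4533 of the 18820 named genes were called, 2623 higher and 1910 lower. Under OCA the number and the genotype cannot be told apart within a number, since WT arrays bear 5 and FXRKO arrays bear 9. With the number as a block, which reaches that comparison only through the vehicle arrays, 2334 of the 18820 named genes were called in place of 5780. Of the 9 measured genes 4 were called, Ugdh, Ugt2b34, Ugt2b1 and Ugt2a3. The values that lost their call were 0.53 for Ugt2b35 (limma adjusted p = 0.116), −0.40 for Ugt2b36 (0.0514), −0.94 for Ugt2b38 (0.0924) and −0.16 for Ugt3a1 (0.682).

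Scaling moved all genotype differences together. Centring each array on its median shifted every difference by −0.17 under vehicle and −0.19 under OCA, and the share of higher genes among all called fell from 56.1% to 17.5% under vehicle and from 56.7% to 16.9% under OCA. Quantile normalization gave 46.9% and 46.6%. Centring took the median difference of all named genes from −0.029 to −0.195 under vehicle and from −0.023 to −0.214 under OCA. Quantile normalization left it at −0.027 and −0.023. Over all probe sets, the medians of the deposited arrays already lay between 4.57 and 4.65. Calls that ended or appeared with centring carry this shift of all genes. The 8 called genes kept their direction under each of these scalings. Centring brought the OCA-group difference of Ugt2b35 down to 0.29 and that of Ugt3a1 to −0.56.

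OCA itself gave no called change in any of the 9 genes. In WT livers 13 of 18820 named genes were called (0.0691%), and in FXRKO livers 3 were (0.0159%). With the array number as a block 667 were called in WT and 0 in FXRKO livers, with 0 among the 9 in either. Ugt3a1 was the only one of these genes with an unadjusted limma p under 0.05 in WT livers, where 1782 of the 18820 named genes had one. It differed by −0.24 ± 0.09 there (95% interval −0.42 to −0.064, limma adjusted p = 0.336), and the OCA array at 9.53 was the lowest. In FXRKO livers 0 of the 9 had an unadjusted p under 0.05, against 968 of all named genes. The differences of the 9 lay between −0.14 for Ugt2b38 and 0.029 for Ugt2b1. For Ugdh the 95% interval was −0.21 to 0.12 in WT and −0.17 to 0.15 in FXRKO livers. That of Ugt2b1 was −0.23 to 0.13 in WT and −0.15 to 0.21 in FXRKO livers. For Ugt2b34 the intervals were −0.13 to 0.095 and −0.12 to 0.098. These intervals leave out a change of the size seen between genotypes for the 3 genes, while those of Ugt2b37 reached −0.68 and 0.48. All come from the fit without the array number, which differs between most WT vehicle and WT OCA arrays. With it as a block the WT values were −0.030 for Ugdh, 0.0055 for Ugt2b1 and 0.043 for Ugt2b34.

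The difference of the OCA effects between genotypes was not called for any of the 9 genes, nor for any of the 18820 (0%). None of the 9 had an unadjusted p under 0.05, against 1140 of all named genes. Among the alternatives, array weights in limma called 2 genes and the array number as a block called 34, with 0 among the 9 in either. The values ran from −0.12 for Ugt2b36 (95% interval −0.29 to 0.047) to 0.16 for Ugt3a1 (−0.089 to 0.41). For Ugdh it was 0.038 (−0.19 to 0.27). A test that misses the threshold does not show equal effects.

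The mice also varied within groups. Deviations from the group mean were correlated over the 24 arrays for all 36 pairs of the 9 genes, and 27 of the 36 coefficients were above 0, with a median r of 0.21. Ugt2b1 and Ugt2b38 varied together most closely, with Pearson r = 0.72 and Spearman rho = 0.72 (permutation within groups, adjusted p = 0.0184 and 0.0328). Without the 2 arrays farthest from the median of Ugt2b1, r was 0.58, and without WT vehicle replicate 6 it was 0.71. Ugt2b37 with Ugt2b38 (r = 0.63, permutation adjusted p = 0.0184; rho = 0.60, adjusted p = 0.0613) and Ugt2b35 with Ugdh (r = 0.60, adjusted p = 0.0184; rho = 0.63, adjusted p = 0.0563) passed by Pearson r only. Without their 2 farthest arrays r was 0.61 and 0.59. Close copies may share probe signal, and the part of that in the correlations was not tested.

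**Figure D3:**
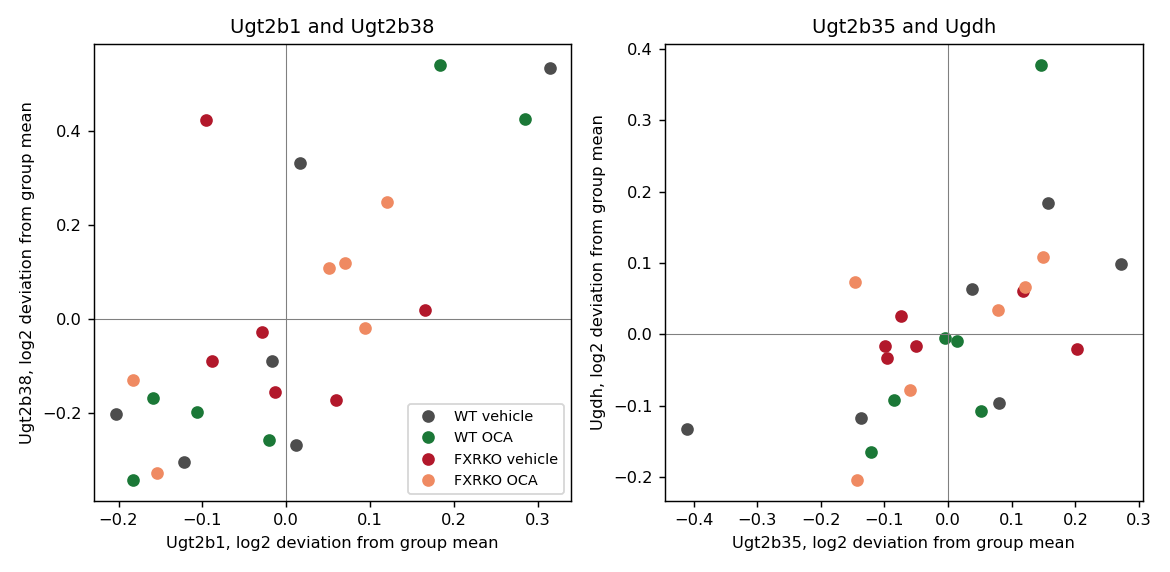
Deviation of each liver from its group mean on the log2 scale, Ugt2b38 against Ugt2b1 (left) and Ugdh against Ugt2b35 (right), 1 point per mouse and colours by group. Both panels slope upward, at r = 0.72 and 0.60 over 24 arrays.

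By the same measure, the 5 named genes whose deviations were most like those of Ugdh, the gene with the widest spread of group means (1.60), were Bcat1 (r = 0.78), Iqcm (0.77), Taar1 (0.76), 1810013L24Rik (0.76) and Epn2 (0.76), over 24 arrays. Their Spearman rho with Ugdh was 0.71, 0.60, 0.60, 0.61 and 0.79 in the same order. The 5 genes are the top of 18820 by r and carry no test. Only Epn2 among them was called between genotypes under vehicle (0.36, limma adjusted p = 0.00465).

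Genes of UDP-sugar supply, use and transport showed smaller differences than Ugdh. Of 6 measured UDP-sugar genes, 1 was higher and 0 lower in FXRKO liver under vehicle, and 3 were higher under OCA. The medians were 0.22 and 0.19. Slc35d1, a transporter of UDP-glucuronate into the endoplasmic reticulum, differed by 0.32 ± 0.06 under vehicle (limma adjusted p = 0.000211) and 0.16 ± 0.06 under OCA (0.0488). Centring ended both calls and turned the latter to −0.034. Under OCA, Slc35d2, another nucleotide sugar transporter (0.35 ± 0.09, limma adjusted p = 0.00291), and Pgm2, of the phosphoglucomutase family (0.42 ± 0.12, 0.00793), were also called, and centring ended both of these calls. Without WT vehicle replicate 6, Pgm2 was also called under vehicle (0.36, limma adjusted p = 0.00349), which makes 2 UDP-sugar genes higher. Among the arrays of number 7 alone 4 of the 6 were higher under vehicle (Pgm2, Slc35d1, Slc35d2 and Uxs1). Uxs1 encodes UDP-xylose synthase, which uses UDP-glucuronate and does not supply it. With the array number as a block 1 was higher under OCA. With centring 0 were higher and 1 lower under each treatment, the lower gene being Ugp2, which makes UDP-glucose (−0.25 and −0.36, limma adjusted p = 0.0121 and 0.000651).

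Among 7 genes of glucuronate breakdown and ascorbate synthesis, 2 were higher and 1 lower under vehicle, and 2 higher and 0 lower under OCA. Akr1a1, which reduces glucuronate on the way to ascorbate, differed by 0.27 ± 0.05 and 0.31 ± 0.05 (limma adjusted p = 0.000218 and 3.65e-05), and centring ended the vehicle call. Miox, an oxygenase of myo-inositol that yields glucuronate, differed by 0.53 ± 0.15 and 0.80 ± 0.15 (limma adjusted p = 0.00912 and 0.000183). Dcxr, the L-xylulose reductase, was lower under vehicle only (−0.23 ± 0.08, limma adjusted p = 0.0365; −0.20 under OCA, 0.0635). Median differences of the list were 0.073 and 0.054. With the array number as a block, the OCA values of Akr1a1 (0.35) and Miox (1.00) and the vehicle value of Dcxr (−0.26) were not called (limma adjusted p = 0.0638, 0.077 and 0.0704). With centring the list gave 1 higher and 3 lower under vehicle and 2 higher and 4 lower under OCA, so the count of lower genes rests on the scaling. The lower genes were then Dcxr, Rgn and Gulo under both treatments and Xylb under OCA.

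Of 5 genes for hydrolysis and export of conjugates, 4 were higher under each treatment and 0 were lower, with medians of 0.61 and 0.60. Abcc4, a basolateral pump of conjugates and bile acids, read 5.19 ± 0.29 in WT and 8.71 ± 0.14 in FXRKO vehicle livers (mean ± SD, n = 6), a difference of 3.51 ± 0.13 SE, or 11.4-fold (limma adjusted p = 1.27e-16). Under OCA it was 13.0-fold. Whether the WT signal exceeds background is not known here, so both folds are of the deposited values and not of RNA amounts. Abcc3, the basolateral pump for glucuronides, differed by 1.16 ± 0.10 and 1.26 ± 0.10 (limma adjusted p = 9.42e-10 under vehicle), and neither gene's genotypes overlapped. Gusb, the lysosomal glucuronidase, differed by 0.61 and 0.60, and Abcc2, the canalicular pump, by 0.52 and 0.43; with the array number as a block the OCA value of Abcc2 was 0.19 and not called (limma adjusted p = 0.561). The 5th gene, Abcg2, was not called, except as lower under vehicle with centring (−0.31, limma adjusted p = 0.00564).

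Of 12 measured regulators of conjugating enzymes, 2 were higher and 6 lower under vehicle, and 2 higher and 7 lower under OCA, with medians of −0.26 and −0.43. Hnf4a, a master factor of the hepatocyte, fell by 0.52 ± 0.08 under vehicle and by 0.56 ± 0.08 under OCA (limma adjusted p = 2.95e-05 and 8.75e-06), and Foxa3, a forkhead factor, by 0.47 ± 0.12 and 0.62 ± 0.12. Ahr, the dioxin receptor, rose by 0.68 ± 0.13 and 0.85 ± 0.13, and Nfe2l2, the oxidative stress factor, by 0.72 ± 0.12 and 0.39 ± 0.12. The Nfe2l2 call under OCA ended with centring (0.20, limma adjusted p = 0.124). Nr1i2, the xenobiotic receptor PXR, fell by 0.29 ± 0.08 under vehicle and by 0.69 ± 0.08 under OCA, and Rxra, the partner of FXR, by 0.22 ± 0.06 and 0.44 ± 0.06. With the array number as a block, the OCA values of Hnf4a (−0.37), Rxra (−0.37) and Nfe2l2 (0.31) were not called (limma adjusted p = 0.223, 0.111 and 0.543). With centring 2 regulators were higher and 9 lower under vehicle, and 1 higher and 10 lower under OCA. Without WT vehicle replicate 6, 9 were lower under vehicle, and with the array number as a block 1 was higher and 5 lower under OCA. Rxra also lost its vehicle call among the arrays of number 7 alone (−0.19, limma adjusted p = 0.0573).

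Sulfation, the parallel route of conjugation, was also split, with 3 higher and 1 lower of 8 measured genes under each treatment. Sult2a8, a bile acid sulfotransferase of mouse liver, read 11.58 ± 0.11 in WT and 8.82 ± 0.32 in FXRKO vehicle livers (mean ± SD, n = 6), a fall of 2.77 ± 0.16 SE, or 6.80-fold (limma adjusted p = 7.75e-13), and by 2.74 under OCA. Sult3a1, an amine sulfotransferase, read 1.89 ± 0.12 and 4.14 ± 0.34, a rise of 2.25 ± 0.33 SE (limma adjusted p = 9.38e-06), and of 2.58 under OCA. In FXRKO OCA livers it varied widely, from 2.87 to 6.25 (SD 1.21). Whether its signal exceeds background in either genotype is not known, as also for Miox, which read 3.07 in WT and 3.61 in FXRKO vehicle livers. Papss2, which makes the sulfate donor, rose by 0.33 and 0.36, and Sult1c2, a cytosolic sulfotransferase, by 0.62 and 0.60; centring ended the calls of both, and Sult1c2 lost its vehicle call without WT vehicle replicate 6 (0.54, limma adjusted p = 0.0524). Both also lost their calls among the arrays of number 7 alone under vehicle and with the array number as a block under OCA, which left 1 higher and 1 lower in each case. Centring left 1 higher and 2 lower under each treatment. Of the genes in these lists, OCA called none in either genotype.

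**Figure D4:**
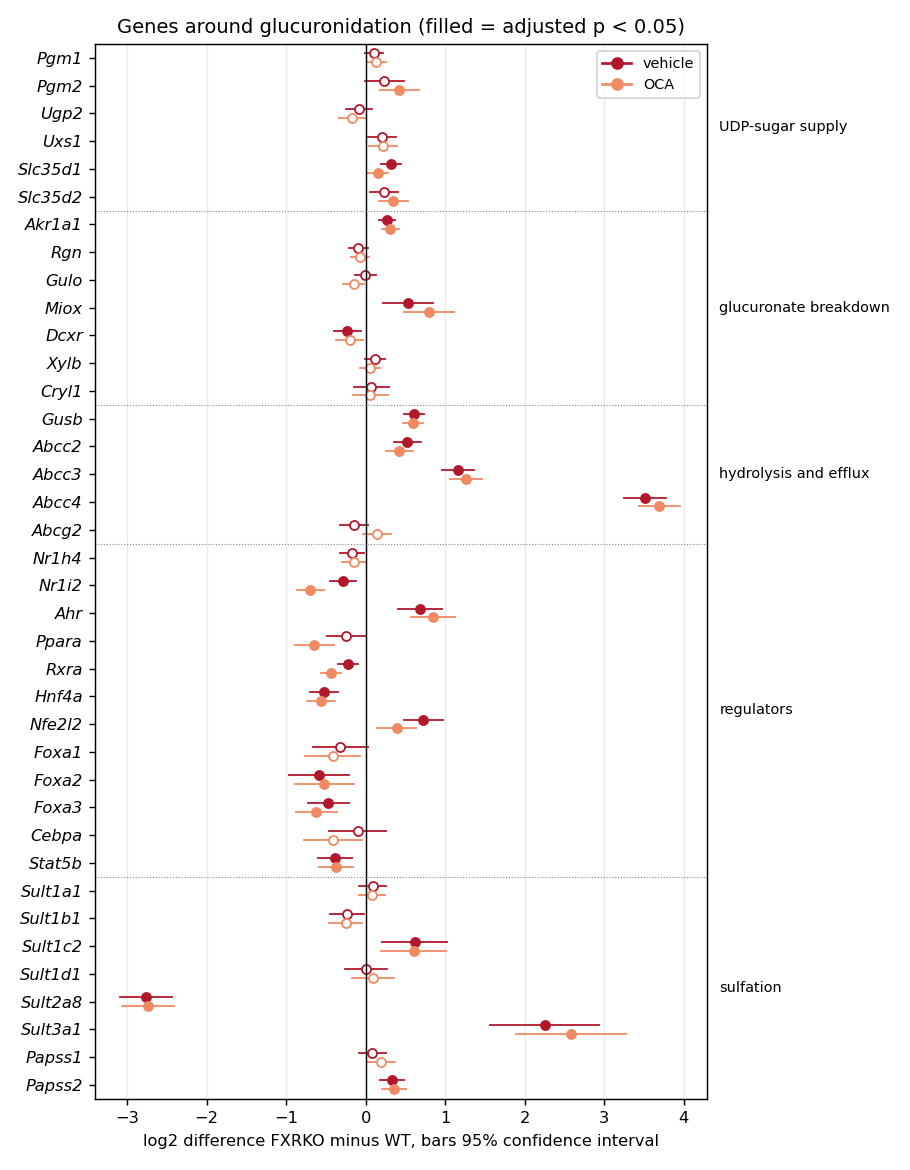
Log2 difference FXRKO minus WT with its 95% confidence interval for the genes of 5 lists around glucuronidation, under vehicle and under OCA; filled points have limma adjusted p < 0.05. Abcc4 at 3.51, Sult3a1 at 2.25 and Sult2a8 at −2.77 under vehicle lie farthest from 0.

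Markers of liver cell types moved with genotype beside all of these genes. Sums of markers are given as the log2 of the signals added on the linear scale, where the brightest marker weighs most. For the 6 hepatocyte markers the sum was 15.56 to 15.65 in WT vehicle and 15.58 to 15.65 in WT OCA livers. It was 15.46 to 15.54 in FXRKO vehicle and 15.39 to 15.51 in FXRKO OCA livers. Of the 6, 1 (Cps1) was lower under vehicle and all 6 were lower under OCA. That count depended on the setting: with centring all 6 were lower under vehicle too, while under OCA 3 were lower with quantile normalization and 0 with the array number as a block. The difference in count between the treatments was not tested. The 5 Kupffer cell markers summed to 10.16 to 11.43 in WT and 11.13 to 12.08 in FXRKO livers, with 3 higher under each treatment, and the 5 stellate cell markers to 10.94 to 11.51 and 11.82 to 12.06, with 3 and 4 higher. Of 4 cholangiocyte markers 2 were higher under vehicle and 0 under OCA. Of 5 sinusoidal endothelial markers 1 was lower under vehicle and 2 were higher under OCA, and of the 3 adipocyte and 3 exocrine pancreas markers none was called; no marker was at 0. With centring 2 endothelial, 2 adipocyte and 2 pancreas markers were lower under vehicle. Between treatments, 1 stellate cell marker, Rgs5, was called lower with OCA in WT livers (means 7.41 with vehicle and 6.97 with OCA). Fewer cells of a type and less RNA per cell cannot be told apart in whole liver, and the part of these markers in the results was not tested.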

How the data were processed

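Total RNA from 24 mouse livers was copied with a whole-transcript cDNA kit and labelled with biotin, per the labels' protocols. The deposited values are log2 expression values that the authors obtained by RMA, per the submitters' processing notes; no RMA version and no log base are stated there, and the span of 0.873 to 13.6 was read as log2. Of 35556 probe sets, 21218 carried 1 gene symbol, 1881 several and 12457 were not listed with a symbol; symbols of 21185 were brought up to date by gene number through a RefSeq table of GRCm38.p6, and the probe set of highest mean was kept per gene, which gave 18820 genes.

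Group means of the 4 groups were modelled in limma 3.58.1, R 4.3.3 (20 residual degrees of freedom), adjusted by Benjamini-Hochberg over 18820 genes and called at adjusted p < 0.05; ± after a difference is SE. The fit was tested on simulated data. Correlations of deviations used permutation within groups, 100000 times. Promoters were aligned with Biopython 1.88 and figures drawn with matplotlib 3.10.9. All genes of the set are named, and of each list around glucuronidation the called genes with the smallest p, at most 4 per list and comparison. The genes and lists were chosen with earlier results of these data known. Nothing in the labels says that the replicate numbers 1 to 6 pair mice across groups. Ugt1a genes share probe sets with several symbols and are not analysed here. Alternatives were centring, quantile normalization, a filter on dim genes, array weights, trend with robust eBayes, fits on the compared groups alone, array number or replicate number as a block, 1 array number alone, every probe set and leaving out each array; the checks of the lists without WT vehicle replicate 6, of the shared Ugt3a probe sets and of the shared promoter run were chosen after seeing the data.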

Additional observations from a re-analysis of the deposited data

Results flagged for a closer look

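Of 120 groups of 6 arrays examined, over the 9 measured genes and the genes of the lists named beside them, 6 held an array whose gap to its nearest neighbour was over 0.625 of the group's range; chance flags about 1 in 20 groups. Among the 36 groups of the 9 genes there were 3. Ugt2b37 read 7.436 in WT vehicle replicate 4, with the next array at 5.605. Ugdh read 10.79 in WT OCA replicate 5, with the next at 10.40, still below every FXRKO array. Ugt2b38 read 8.495 in FXRKO vehicle replicate 6, with the next at 8.089, which is the array that made the vehicle groups overlap. Ahr read 9.638 and Foxa3 8.235 in WT vehicle replicate 6, against 8.760 and 8.861 in the nearest array. Pgm2 read 6.929 in WT OCA replicate 5, with the next at 6.620.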

How the results depend on the processing

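No call among the 9 genes reversed: all 8 genes called in each genotype comparison kept their direction under every alternative run, and OCA and the difference of its effects gave 0 called genes under each. Of the 8 called between genotypes, 7 were called under vehicle with quantile normalization and without WT vehicle replicate 3, WT vehicle replicate 4 or FXRKO vehicle replicate 5, and 4 under OCA with array number as a block. The labels do not say that replicate numbers pair the mice. The 36 correlations of deviations between same-numbered arrays ran from −0.0824 to 0.17, 2 over 0.1. Such correlations cannot show whether mice were paired. With the replicate block the genotype counts among the 9 genes were 8 and 8, and over all named genes 5060 and 5707; OCA in WT called 4 in place of 13. The replicate block ended the OCA-group call of Slc35d1 (0.16, limma adjusted p = 0.0705), which left 2 UDP-sugar genes higher. It added Foxa1 (−0.42, limma adjusted p = 0.0455), which made 8 regulators lower, and left 5 hepatocyte markers lower. No other count of the lists named changed. Over all named genes the number block called 2334 under OCA in place of 5780, and centring called 10130 and 11099 in place of 5174 and 5780. For OCA in WT, the counts over all genes ranged from 2 to 22 apart from 667 with the number block; for OCA in FXRKO they ranged from 0 to 11 (3 in the fit reported) and for the difference from 0 to 34 (0 in the fit reported). Levels near background were not screened out by detection calls.

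Signs turned only for uncalled genes. For OCA in WT they were Ugt2b34 0.0077 with quantile normalization, Ugt2b35 −0.021 with array weights, and, with the number block and with number 5 alone, Ugt2b1 0.0055, Ugt2b34 0.043, Ugt2b37 0.29 and Ugt2b38 0.26. In FXRKO they were Ugt2b34 0.0051 and Ugdh 0.0046 with quantile normalization and, with the number block and number 9 alone, Ugt2a3 0.031, Ugt2b35 0.018, Ugt3a1 0.050 and Ugdh 0.016. The difference of effects gave Ugt2b34 −0.021 with centring, −0.0026 with quantile normalization and −0.052 with the number block, where Ugt2b37 was −0.39. The cause was not tested.

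Leaving out 1 array turned the sign within these ranges. For OCA in WT: Ugt2b1 −0.11 to 0.013, Ugt2b34 −0.043 to 0.015, Ugt2b35 −0.050 to 0.086, Ugt2b37 −0.27 to 0.16 and Ugt2b38 −0.13 to 0.081. For OCA in FXRKO: Ugt2b34 −0.031 to 0.015, Ugt2b37 −0.14 to 0.043 and Ugdh −0.030 to 0.032. Between genotypes Ugt2b37 ran from −0.27 to 0.16 under vehicle and −0.15 to 0.036 under OCA. For the difference: Ugt2a3 −0.0058 to 0.085, Ugt2b34 −0.028 to 0.030 and Ugt2b37 −0.19 to 0.24.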
